A study of Mus musculus with 6 samples.

Results

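The genes described here are 10 inflammatory cytokines, chemokines and leukocyte adhesion molecules of the mouse ovary: the adhesion molecules Sele, Selp, Vcam1 and Icam1, the chemokines Ccl2, Cxcl1 and Cxcl12, and the cytokines Il6, Il1b and Tnf. They were chosen by name from the 51826 genes of the count table, where each has 1 row. All 10 passed the filter on low counts that left 19027 genes for testing, but Il6 passed narrowly, since it reached the cutoff of 0.321 CPM (counts scaled to a common library size) in 2 of the 6 libraries and in 0 of the COH libraries. The data are bulk RNA sequencing of ovaries of ICR mice, an outbred strain. There were 2 libraries from mice with ovarian hyperstimulation syndrome (OHSS) that received nintedanib (bibf1120), 2 from OHSS mice without the drug, and 2 from the comparison group labelled COH, a name the labels do not spell out. Nintedanib is a small molecule that blocks the receptor tyrosine kinases of the VEGF, PDGF and FGF families. The sources used here give no ages, hormones, doses or times, and do not say whether replicate libraries are separate animals. The p-values therefore measure only the spread between these libraries, which may be technical. Total counts were 28498435 and 31308357 in the nintedanib ovaries, 32390829 and 30993703 in the OHSS ovaries, and 34716751 and 28609601 in the COH ovaries. The 10 genes together took 0.0169 to 0.0346% of them.

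Leukocytes leave the blood in steps. Selectins on the vessel wall catch passing cells on sugar-bearing ligands and let them roll, chemokines held on the wall switch on leukocyte integrins, and the integrins then grip ICAM-1 and VCAM-1 until the cell stops and crosses. TNF and IL-1 beta, made largely by macrophages, act on endothelial cells through NF-kB, which turns on the genes of E-selectin, ICAM-1, VCAM-1, IL-6 and several chemokines. P-selectin differs in that it is also stored ready-made in granules of platelets and endothelial cells. In the ovary these molecules take part in ovulation and in the life and regression of the corpus luteum, and OHSS is known as a state in which ovarian vessels leak.

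The sequences just upstream of 4 of the genes are shown because Sele and Cxcl1 gave the smallest p-values of the members in the comparisons below, Selp is the selectin gene near Sele, and Il6 carries a kappa B match like that of Cxcl1. RefSeq's promoter table (GRCm38.p6) held 8 of the 10 members, all but Vcam1 and Ccl2. Each line gives the 250 bases before the annotated start, 5′ to 3′ on the plus strand, and capitals mark matches to the NF-kB kappa B consensus or to TATAAA, searched on both strands in windows that also took in the 50 bases after the start.
Sele, chr1:164047984-164048233: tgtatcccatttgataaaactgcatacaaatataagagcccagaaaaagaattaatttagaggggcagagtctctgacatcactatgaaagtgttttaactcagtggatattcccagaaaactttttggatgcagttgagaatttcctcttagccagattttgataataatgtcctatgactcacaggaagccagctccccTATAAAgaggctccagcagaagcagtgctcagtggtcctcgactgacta
Selp, chr1:164115014-164115263: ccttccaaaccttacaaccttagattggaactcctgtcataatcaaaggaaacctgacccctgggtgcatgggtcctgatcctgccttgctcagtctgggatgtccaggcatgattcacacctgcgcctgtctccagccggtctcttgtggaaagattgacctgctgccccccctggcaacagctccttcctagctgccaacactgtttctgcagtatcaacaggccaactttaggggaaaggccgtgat
Cxcl1, chr5:90890995-90891244: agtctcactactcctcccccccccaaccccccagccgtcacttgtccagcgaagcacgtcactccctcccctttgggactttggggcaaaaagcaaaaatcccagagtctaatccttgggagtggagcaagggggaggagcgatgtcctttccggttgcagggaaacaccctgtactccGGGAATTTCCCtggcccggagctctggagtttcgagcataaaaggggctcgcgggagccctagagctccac
Il6, chr5:30012864-30013113: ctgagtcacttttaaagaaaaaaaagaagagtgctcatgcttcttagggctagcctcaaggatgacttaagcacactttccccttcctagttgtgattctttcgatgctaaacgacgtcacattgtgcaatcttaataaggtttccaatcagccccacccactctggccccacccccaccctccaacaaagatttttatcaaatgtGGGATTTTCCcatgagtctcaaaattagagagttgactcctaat
Kappa B matches were found in 2 of the 8 windows. The Il6 match began 44 bases before the start. Cxcl1 had a single stretch that matched on both strands, with overlapping matches that began 71 and 70 bases before the start. Over all 32851 promoters in the table, 4.505% held a kappa B match in a window of this size. TATAAA was found in 4 of the 8, against 13.616% of all promoters. It began 49 bases before the start of Sele, 31 before that of Il1b and 29 before that of Tnf. In Icam1 it began at base 14 counted from RefSeq's start, and the bases before that start end at chr9:21015939. GENCODE, used below for gene positions, starts Icam1 at 21015985, so by that annotation the match lies before the gene. No match means only that these letters are not in the window.

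The 10 genes covered a wide range of levels. Counted per kilobase of merged exons, so that genes of different length can be set side by side, Cxcl12 was first in each group, with 13.3 ± 2.80 CPM per kb in the nintedanib ovaries, 24.6 ± 13.8 in the OHSS ovaries and 24.1 ± 6.94 in the COH ovaries (SD, n = 2 each, as for every mean below). Icam1 had 6.78 ± 0.526, 5.49 ± 0.0113 and 6.36 ± 0.869 CPM per kb in nintedanib, OHSS and COH ovaries. Vcam1 and Ccl2 lay close to each other, with means of 4.45 and 4.68 CPM per kb in the nintedanib ovaries, 3.81 and 4.47 in the OHSS ovaries and 3.33 and 2.46 in the COH ovaries, and they did not differ beyond their spread. Group means of Il1b lay between 0.931 and 1.65 CPM per kb, and those of Selp, Tnf and Sele between 0.123 and 0.548. Il6 was last in each group, at 0.119 ± 0.0675 CPM per kb in nintedanib ovaries, 0.114 ± 0.0306 in OHSS ovaries and 0.116 ± 0.00025 in COH ovaries. Cxcl1 moved furthest in this order: it ranked 5 of 10 in the nintedanib ovaries, 2 in the OHSS ovaries and 4 in the COH ovaries. The levels that follow are CPM, without division by length.

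**Figure D1:**
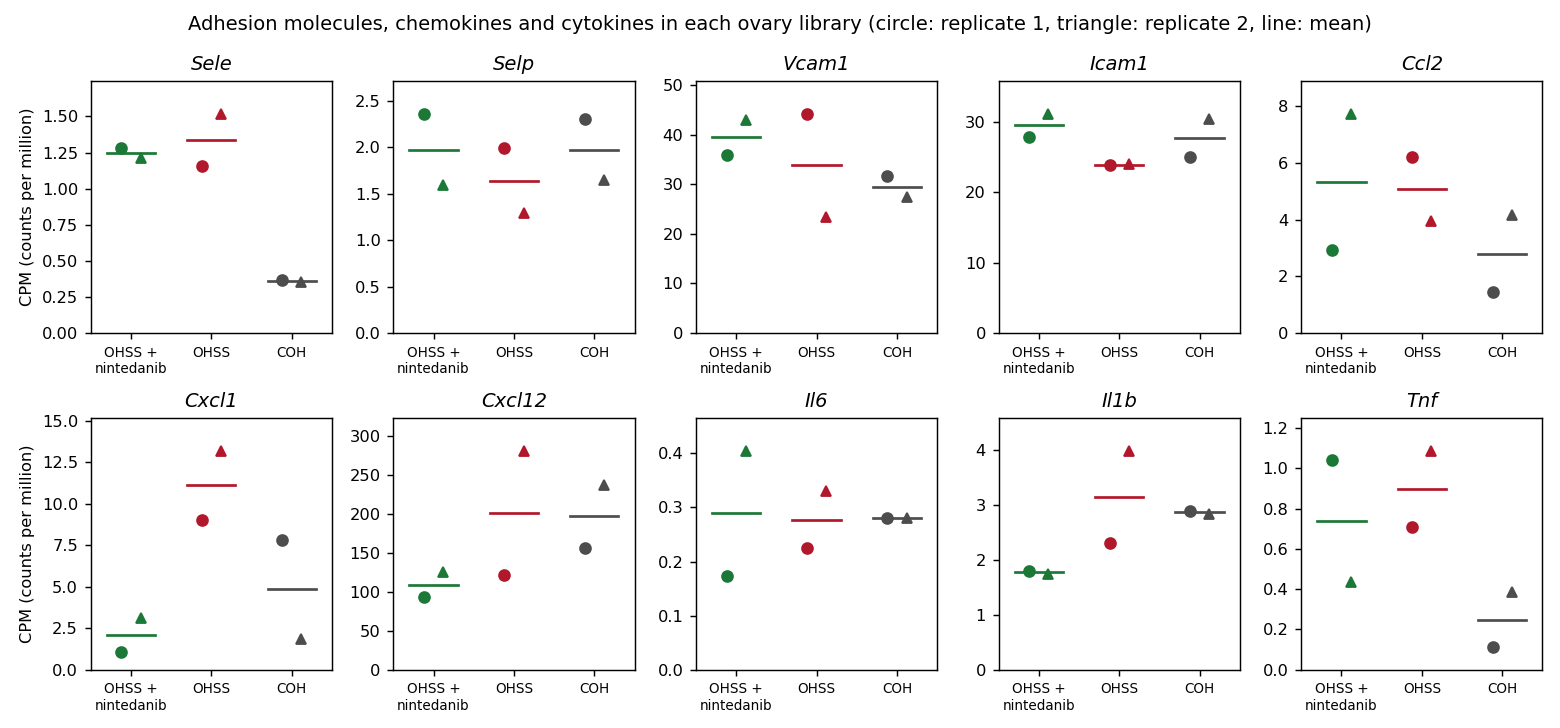
Level of each of the 10 genes in every library, in CPM with a separate vertical axis for each gene, for the nintedanib, OHSS and COH ovaries from left to right; circles are replicate 1, triangles replicate 2 and lines the means of 2 libraries. Both nintedanib and both OHSS libraries lie above both COH libraries for Sele and Tnf, and both OHSS libraries lie above all others for Cxcl1.

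Sele encodes E-selectin, which activated endothelial cells make and which lets leukocytes roll. The gene (chr1:164048234-164057677, plus strand, GRCm38) had 1.28 and 1.22 CPM in the nintedanib ovaries, 1.16 and 1.52 CPM in the OHSS ovaries, and 0.365 and 0.350 CPM in the COH ovaries. All 4 OHSS libraries, with and without the drug, stood above both COH libraries, and the drug-treated libraries lay within the range of the untreated ones. The values rest on few reads, 37 and 39 counts with nintedanib, 36 and 46 in OHSS and 13 and 10 in COH. The largest ratio between 2 libraries of a group was 1.31 for Sele, against a ratio of 3.74 between its highest and lowest group means. OHSS minus COH was 1.89 on the log2 scale (SE 0.378, 95% interval 0.94 to 2.84), with an unadjusted p of 0.0033 in edgeR's quasi-likelihood test, which the adjustment over 19027 genes took to 0.447. DESeq2 gave Sele a log2 fold change of 1.92 and an adjusted p of 0.0374, so the call depends on the tool. Nintedanib minus COH was 1.79 (SE 0.378, 95% interval 0.84 to 2.74), with adjusted p = 0.430 by edgeR and 0.0532 by DESeq2. Between the drug-treated and untreated OHSS ovaries the difference was -0.10, with a 95% interval of -0.98 to 0.78. In bulk RNA, fewer cells of a type and less RNA per cell cannot be told apart.

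Because E-selectin is made by endothelial cells, its level was also set against the sum of 8 endothelial marker genes. That sum was 533 and 564 CPM in the nintedanib ovaries, 413 and 456 CPM in the OHSS ovaries, and 514 and 517 CPM in the COH ovaries. As a sum it was lowest in OHSS. Of the 8 genes, 2 were higher and 6 lower in OHSS than in COH, where 49.6% of all genes were higher. All 8 were higher with nintedanib than in OHSS, as 51.5% of all genes were. EdgeR called 0 of the 8 in either comparison, and 3 in each had an unadjusted p below 0.05, beside 8.82 and 7.42% of all genes. DESeq2 called 1 and 2 of the 8, beside 1.89 and 1.17%. Sele came to 0.241 and 0.215% of the endothelial sum with nintedanib, 0.280 and 0.333% in OHSS, and 0.0710 and 0.0678% in COH. With the libraries scaled to these markers, a choice made after seeing the data, OHSS minus COH was 2.13 (adjusted p = 0.290 by edgeR), nintedanib minus COH 1.70 (adjusted p = 0.476 by edgeR) and nintedanib minus OHSS -0.43. This scaling moves the median of all genes by 0.25, -0.09 and -0.33 in the same 3 comparisons.

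Selp, the gene of P-selectin, lies 57.59 kb from Sele on the same strand (chr1:164115264-164150026). Its levels did not follow those of Sele: 2.36 and 1.59 CPM with nintedanib, 1.99 and 1.29 CPM in OHSS, and 2.30 and 1.65 CPM in COH. The 3 groups overlapped, and the largest ratio within a group, 1.55, exceeded the ratio of 1.204 between the highest and lowest group means. OHSS minus COH was -0.27 (SE 0.405, 95% interval -1.29 to 0.75), nintedanib minus OHSS 0.27 (SE 0.406) and nintedanib minus COH -0.0046, with a 95% interval of -1.02 to 1.01. A pair of genes on the opposite strand, Gm16587 and Gm16548, overlaps Selp, with at most 8 and 6 counts in any library. No source used here says whether the counting used strand.

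Vcam1 encodes the immunoglobulin-type molecule to which the leukocyte integrin alpha4 beta1 binds. It lies at chr3:116109949-116129688 on the minus strand. Vcam1 had 35.9 and 43.0 CPM in the nintedanib ovaries, 44.2 and 23.4 CPM in the OHSS ovaries, and 31.7 and 27.4 CPM in the COH ovaries. The OHSS libraries held both the highest and the lowest value of all 6, a ratio of 1.89, while both nintedanib libraries stood above both COH libraries. Nintedanib minus COH was 0.42 (SE 0.312, 95% interval -0.37 to 1.202), OHSS minus COH 0.19 (95% interval -0.59 to 0.98) and nintedanib minus OHSS 0.22 (95% interval -0.56 to 1.01). The 2 libraries with the most Vcam1, OHSS replicate 1 and nintedanib replicate 2, also had the highest sums of 8 interferon response genes, 854 and 2004 CPM, and the part of that in the Vcam1 levels was not tested. Leaving out OHSS replicate 1 gave -0.32 for OHSS minus COH, and leaving out OHSS replicate 2 gave 0.57.

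Icam1 (chr9:21015985-21028817, plus strand) encodes the ligand of the beta2 integrins LFA-1 and Mac-1. By the ratio of its highest to its lowest library, 1.303, it varied least of the 10 genes, with 27.9 and 31.2 CPM with nintedanib, 23.9 and 24.0 CPM in OHSS, and 25.04 and 30.4 CPM in COH. Both OHSS libraries lay below all 4 others, by a margin that was small beside the difference between the COH libraries. Nintedanib minus OHSS was 0.30 (SE 0.146, 95% interval -0.06 to 0.67, unadjusted p = 0.0881 and adjusted p = 0.708 by edgeR), OHSS minus COH -0.21 (95% interval -0.58 to 0.16) and nintedanib minus COH 0.09 (95% interval -0.27 to 0.46). Relative to the endothelial sum, Icam1 came to 5.24 and 5.52% with nintedanib, 5.79 and 5.26% in OHSS and 4.87 and 5.88% in COH, and the 3 groups overlapped. An antisense gene, Gm47079, overlaps Icam1, and no counts under that name were found. Stretches of Icam1 transcripts also nearly match those of many other genes, the longest over 163 bases at 95.1% identity. The Icam1 count is therefore less certain.

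Among the chemokines, Cxcl1, which draws neutrophils through the receptor CXCR2, had the widest range of the 10 genes, 12.3-fold between its highest and lowest library. Cxcl1 (chr5:90891241-90893115, plus strand) had 1.08 and 3.12 CPM in the nintedanib ovaries, 9.03 and 13.2 CPM in the OHSS ovaries, and 7.84 and 1.86 CPM in the COH ovaries. Both OHSS libraries were above all others, both nintedanib libraries were below them, and the COH libraries were 4.22-fold apart. Nintedanib minus OHSS was -2.40 (SE 0.824, 95% interval -4.47 to -0.33), with an unadjusted p of 0.0303 and an adjusted p of 0.653 by edgeR, and an adjusted p of 0.113 by DESeq2. For OHSS minus COH the value was 1.19 (SE 0.785, 95% interval -0.78 to 3.16), with 2.58 when COH replicate 1 was left out and 0.51 when COH replicate 2 was. Nintedanib minus COH was -1.21 (SE 0.804, 95% interval -3.23 to 0.81), and 0.18 without COH replicate 1. The counts behind these values were 31 and 100 with nintedanib, 281 and 400 in OHSS, and 279 and 53 in COH. The upstream sequence of Cxcl1, printed above, holds a single stretch that matches kappa B on both strands, and its part in these levels was not tested.

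Cxcl2, a neutrophil chemokine that also acts through CXCR2 and lies 10.76 kb from Cxcl1, had 0.728 and 0.748 CPM with nintedanib, 1.16 and 1.68 CPM in OHSS, and 0.562 and 0.665 CPM in COH. Here, too, both OHSS libraries stood above the other 4, but on few reads. The counts were 21 and 24 with nintedanib, 36 and 51 in OHSS, and 20 and 19 in COH. Its log2 fold change was 1.21 for OHSS minus COH (SE 0.391, unadjusted p = 0.0246, adjusted p = 0.542 by edgeR) and -0.94 for nintedanib minus OHSS (SE 0.387, unadjusted p = 0.0558, adjusted p = 0.675 by edgeR). These comparisons share the OHSS libraries, so a high OHSS value enters both with opposite sign.

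Ccl2 encodes MCP-1, which calls monocytes through CCR2. The gene (chr11:82035571-82037453, plus strand) had 2.91 and 7.73 CPM with nintedanib, 6.21 and 3.96 CPM in OHSS, and 1.43 and 4.17 CPM in COH. All 3 groups overlapped, with up to a 2.91-fold difference between libraries of a group. OHSS minus COH was 0.87 (SE 0.686, 95% interval -0.86 to 2.59), nintedanib minus COH 0.93 (SE 0.687, 95% interval -0.79 to 2.66) and nintedanib minus OHSS 0.07 (95% interval -1.63 to 1.76). Its 2 highest libraries were again OHSS replicate 1 and nintedanib replicate 2, those with the highest interferon sums. Without nintedanib replicate 2, nintedanib minus COH was 0.06, and without OHSS replicate 1, OHSS minus COH was 0.52. Ccl7, a neighbour 8.26 kb away that acts on some of the same receptors and is named here after its values were seen, had 3.19 and 5.98 CPM with nintedanib, 4.15 and 2.34 CPM in OHSS, and 0.899 and 2.87 CPM in COH.

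Cxcl12 is made by stromal and perivascular cells and holds cells that carry CXCR4 in place. At chr6:117168535-117181367 on the plus strand, it had 92.6 and 125 CPM in the nintedanib ovaries, 122 and 281 CPM in the OHSS ovaries, and 157 and 237 CPM in the COH ovaries. Both nintedanib libraries lay below both COH libraries, while the OHSS libraries, 2.31-fold apart, spanned the COH range and overlapped the nintedanib libraries. With the drug against OHSS the difference was -0.89 (SE 0.437, 95% interval -1.99 to 0.21, unadjusted p = 0.0940 and adjusted p = 0.708 by edgeR), and nintedanib minus COH was -0.85 (SE 0.437, 95% interval -1.95 to 0.24). OHSS lay 0.03 above COH on the log2 scale, with a 95% interval of -1.06 to 1.12. Without OHSS replicate 2, nintedanib minus OHSS was -0.16, against -1.39 without OHSS replicate 1.

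The 3 cytokine genes gave few reads, from 4 to 121 counts in a library. Il1b, the gene of interleukin-1 beta (chr2:129364570-129371139, minus strand), had 1.80 and 1.75 CPM with nintedanib, 2.31 and 3.99 CPM in OHSS, and 2.89 and 2.84 CPM in COH. Both nintedanib libraries stood below all 4 drug-free ones. The difference from OHSS was -0.83 (SE 0.349, 95% interval -1.71 to 0.05, unadjusted p = 0.0599 and adjusted p = 0.682 by edgeR), and -0.38 without OHSS replicate 2. Nintedanib minus COH was -0.69 (SE 0.349, 95% interval -1.57 to 0.19), and OHSS minus COH was 0.14 (95% interval -0.73 to 1.00). The antisense gene Il1bos, which overlaps Il1b, had at most 4 counts in a library.

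Tnf (chr17:35199381-35202007, minus strand), the gene of tumour necrosis factor, had 1.04 and 0.436 CPM with nintedanib, 0.707 and 1.09 CPM in OHSS, and 0.112 and 0.385 CPM in COH. As for Sele, all 4 OHSS libraries had more than both COH libraries, but nintedanib replicate 2 exceeded COH replicate 2 by little. The counts were 30 and 14 with nintedanib, 22 and 33 in OHSS, and 4 and 11 in COH. If each pair of reads was counted as 2, the exact Poisson 95% interval of nintedanib replicate 2 reached from 0.175 to 0.899 CPM and that of COH replicate 2 from 0.134 to 0.866 CPM, for counting error only. OHSS exceeded COH by 1.87 (SE 0.773, 95% interval -0.08 to 3.81) with an unadjusted p of 0.0566 and an adjusted p of 0.579 by edgeR, and DESeq2 set no adjusted p for it. It was 1.21 without COH replicate 1 and 2.96 without COH replicate 2. Nintedanib minus COH was 1.58 (SE 0.776, 95% interval -0.37 to 3.53), and 0.84 without nintedanib replicate 1. The drug-treated ovaries differed from OHSS by -0.29 (95% interval -2.08 to 1.51).

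Il6 (chr5:30013114-30019981, plus strand), which encodes interleukin-6, was barely detected, with 5 and 13 counts with nintedanib, 7 and 10 in OHSS, and 10 and 8 in COH. These are 0.173 and 0.405 CPM, 0.225 and 0.330 CPM, and 0.281 and 0.280 CPM in nintedanib, OHSS and COH libraries. The group means were within a ratio of 1.04 of each other. The 95% interval of nintedanib minus OHSS ran from -1.50 to 1.64, and that of OHSS minus COH from -1.58 to 1.55. A difference of 1 log2 unit in either direction lies within both intervals.

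**Figure D2:**
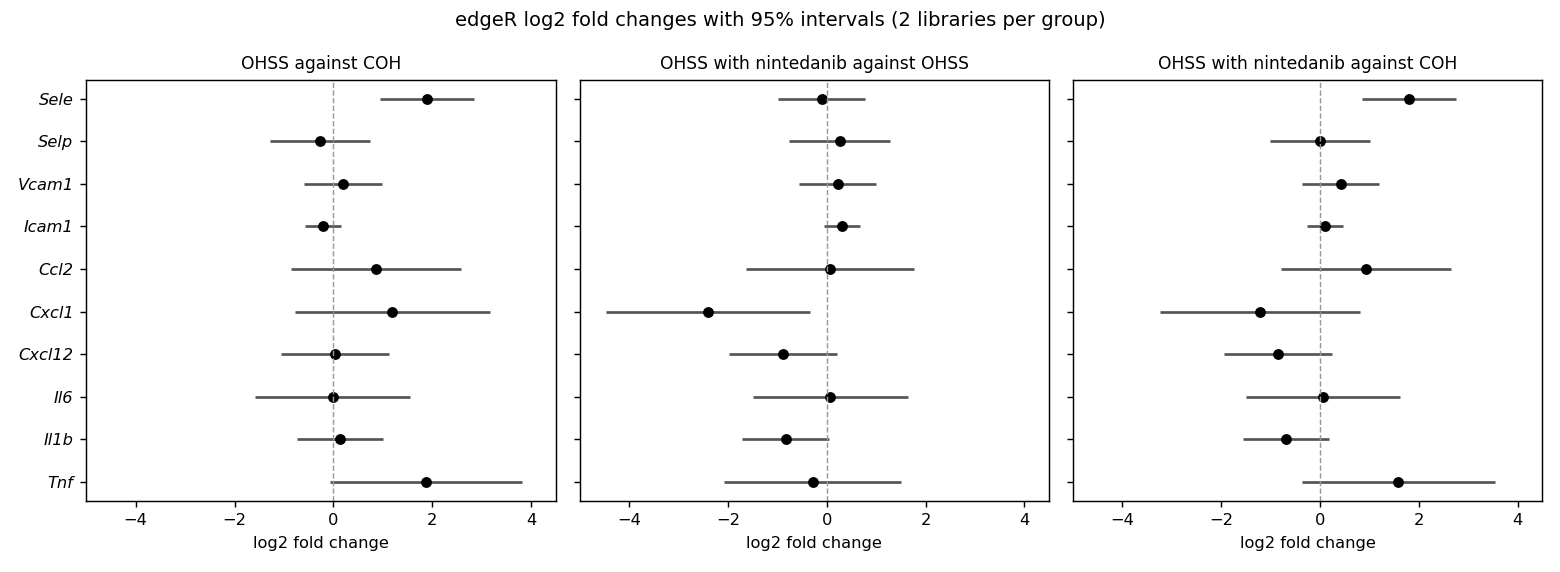
Log2 fold change of each of the 10 genes in the 3 comparisons, with edgeR's 95% intervals as horizontal bars; the dashed line marks no difference. The intervals lie clear of 0 for Sele in both comparisons with COH and for Cxcl1 in nintedanib against OHSS, and none of the 10 genes passed the adjusted threshold in edgeR.

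In OHSS against COH ovaries, none of the 10 genes passed edgeR's adjusted p of 0.05, a threshold that 0.0105% of the 19027 tested genes passed. At an unadjusted p below 0.05 there was 1 member, Sele, or 1 of 10, against 8.82% of all genes, so its share is near the background. DESeq2 called 1 of the 10, Sele, and 1.89% of all genes. The median log2 fold change was 0.17 over the 10 genes and -0.00298 over all genes tested, with 7 members above 0 and 49.6% of all genes above 0. The libraries did not overlap for 4 members, against 44.1% of all genes. Of these 4, Sele, Tnf and Cxcl1 were higher in OHSS, as 21.2% of all genes were, and Icam1 was lower, as 22.9% were.

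In nintedanib against OHSS ovaries, 0 of the 10 passed edgeR's adjusted threshold, which 0.00526% of all genes passed, and DESeq2 called none of the 10 against 1.17% of all genes. The single member with an unadjusted p below 0.05 was Cxcl1, lower with the drug, beside 7.42% of all genes. The members split evenly, 5 higher and 5 lower, with 51.5% of all genes higher, and their median was -0.02 on the log2 scale against 0.01 for all genes. Icam1 was higher and Cxcl1 and Il1b lower in both nintedanib libraries than in both OHSS libraries, 3 of 10 members against 36.2% of all genes (19.2% higher and 16.9% lower).

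In nintedanib against COH ovaries, 0 of the 10 passed edgeR's adjusted threshold, which 0.0263% of all genes passed, and DESeq2 called 0 against 2.36% of all genes. Sele was the 1 member with an unadjusted p below 0.05, a level that 9.70% of all genes reached. The median was 0.07 for the members and -0.000988 for all genes, with 6 members and 49.9% of all genes above 0. Groups did not overlap for 5 of the 10, with Sele, Tnf and Vcam1 higher and Il1b and Cxcl12 lower, against 45.0% of all genes (22.3% higher and 22.7% lower). All 3 comparisons draw on the same 6 libraries and each library enters 2 of them, so their values are not independent of each other.

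The binding partners on leukocytes were followed for the adhesion molecules. Selplg, the gene of the P-selectin ligand PSGL-1, had 6.69 and 3.83 CPM with nintedanib, 13.3 and 7.39 CPM in OHSS, and 6.04 and 10.1 CPM in COH. Both nintedanib libraries lay below both OHSS libraries, and the difference was -0.98 (SE 0.453, unadjusted p = 0.0792, adjusted p = 0.702 by edgeR). Itga4, the alpha chain of the VCAM-1 receptor, lay between 6.73 and 8.74 CPM in all 6 libraries. Itgal and Itgb2, the chains of the ICAM-1 receptor LFA-1, had 4.23 and 4.86 CPM and 7.94 and 6.73 CPM with nintedanib, 4.63 and 3.76 CPM and 9.999 and 7.26 CPM in OHSS, and 3.40 and 3.61 CPM and 8.23 and 10.7 CPM in COH. Itgam, the alpha chain of Mac-1, has 2 rows in the table, with 713 and 717 counts over all libraries. Only the row with 717 counts was used, so its 2.34 to 4.76 CPM over the 6 libraries leaves out the other row and is uncertain. Over this list of leukocyte ligands and integrins, 12 of 13 genes were tested and edgeR called 0 in each comparison. At an unadjusted p below 0.05 there were 0 genes in OHSS against COH and 1 in each comparison of the nintedanib group, against 8.82, 7.42 and 9.70% of all genes in OHSS against COH, nintedanib against OHSS and nintedanib against COH. The 1 gene was St3gal4, an enzyme that builds selectin ligands. It had 236 and 352 CPM with the drug, 193 and 163 CPM in OHSS and 171 and 144 CPM in COH, and DESeq2's adjusted p was 0.193 against OHSS and 0.0250 against COH.

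Receptors of the chemokines were read next. Ccr2, the receptor of CCL2 on monocytes, was lowest in both nintedanib libraries, with 2.98 and 2.68 CPM, against 3.67 and 4.16 CPM in OHSS and 5.23 and 5.46 CPM in COH, 3 groups with no overlap. Its nintedanib minus COH difference was -0.92 (SE 0.230), with unadjusted p = 0.00894 and adjusted p = 0.471 by edgeR, and 0.0386 by DESeq2. Cxcr2, the CXCL1 receptor, had 0.277 and 0.561 CPM with nintedanib, 0.354 and 1.42 CPM in OHSS, and 0.422 and 0.490 CPM in COH. Cxcr4, the signalling receptor of CXCL12, varied within groups, with 43.0 and 17.9 CPM with nintedanib, 52.1 and 17.5 CPM in OHSS, and 21.1 and 16.7 CPM in COH. Replicate 1 was the higher in each group. Ackr3, which takes up CXCL12, stayed between 16.6 and 23.6 CPM in all libraries. Ackr1, which carries chemokines across the endothelium, had 0.416 and 0.717 CPM with nintedanib, 0.257 and 0.330 CPM in OHSS, and 0.169 and 0.245 CPM in COH. Its nintedanib minus COH difference was 1.45 (SE 0.561, unadjusted p = 0.0455, adjusted p = 0.512 by edgeR). The counts were 12 and 23 with nintedanib, 8 and 10 in OHSS, and 6 and 7 in COH. Both nintedanib libraries but neither COH library reached the filter's cutoff of 0.321 CPM. Ackr1 thus passed the filter mainly through the group where it is high, so this p is no support for a difference.

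The receptors of the cytokines completed the set. Tnfrsf1a, the widespread TNF receptor, had 175 and 145 CPM with nintedanib, 189 and 176 CPM in OHSS, and 176 and 192 CPM in COH. Tnfrsf1b, the inducible TNF receptor, had 87.3 and 83.9 CPM with nintedanib, 162 and 82.5 CPM in OHSS, and 77.8 and 69.7 CPM in COH, and OHSS minus COH was 0.73 (SE 0.312, unadjusted p = 0.0628, adjusted p = 0.592 by edgeR). Il6st, the signalling chain gp130, had 145 and 120.0 CPM with nintedanib, 265 and 134 CPM in OHSS, and 248 and 146 CPM in COH. Il6ra, the chain that binds interleukin-6, had 12.7 and 12.1 CPM with nintedanib, 20.4 and 12.1 CPM in OHSS, and 12.4 and 10.96 CPM in COH. OHSS replicate 1 was the highest library for Tnfrsf1b, Il6st and Il6ra. The interleukin-1 receptor Il1r1 had 62.1 and 67.4 CPM with nintedanib, 46.2 and 59.8 CPM in OHSS, and 46.1 and 68.9 CPM in COH. The decoy receptor Il1r2 had 0.347 and 0.592 CPM with nintedanib, 0.289 and 0.0660 CPM in OHSS, and 0.281 and 0.280 CPM in COH. The receptor antagonist Il1rn, with 4.27 and 1.81 CPM with nintedanib, 3.41 and 9.14 CPM in OHSS, and 4.41 and 3.47 CPM in COH, was highest in OHSS replicate 2, as Il1b was. Of the 15 receptors and antagonists listed, 14 were tested and edgeR called 0 in each comparison. An unadjusted p below 0.05 was reached by 3, all in nintedanib against COH, where 9.70% of all genes reached it. They were Ccr2, Il1rap and Ackr1, the last with the limit on counts given above.

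**Figure D3:**
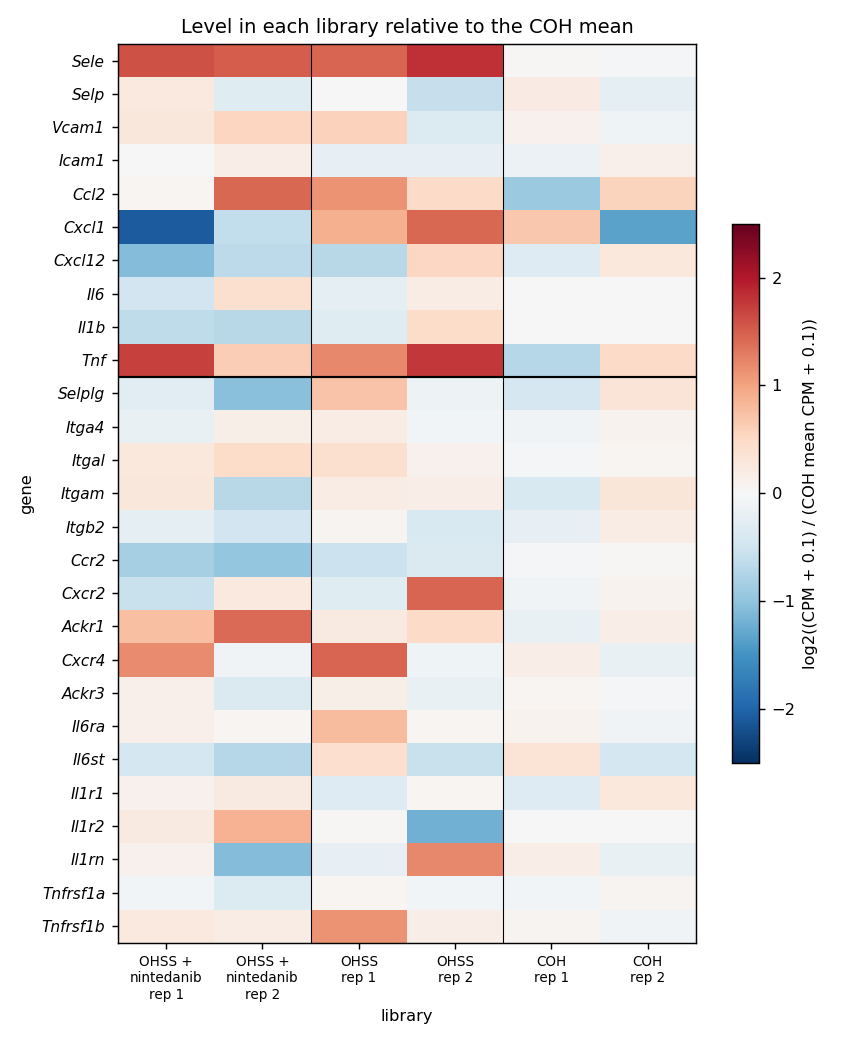
Heat map of the 10 genes and, below them, 17 binding partners and receptors, as log2 of CPM plus 0.1 minus the mean of the COH libraries, with 1 column per library and the nintedanib, OHSS and COH libraries from left to right. Sele and Tnf are above the COH mean in all 4 OHSS libraries, Cxcl1 is below it in both nintedanib libraries, and Ccr2 is below it in all 4.

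The wider inflammatory programme was described by counts in the same fits. Of 15 genes of the NF-kB pathway, all tested, 10 had a positive log2 fold change in OHSS against COH, 3 in nintedanib against OHSS and 8 in nintedanib against COH, with medians of 0.16, -0.14 and 0.02 beside all-gene medians of -0.00298, 0.01 and -0.000988. Over all genes, 49.6, 51.5 and 49.9% were positive. EdgeR and DESeq2 called 0 of the 15 in each, and 2, 1 and 0 had an unadjusted p below 0.05, against 8.82, 7.42 and 9.70% of all genes. Tnfaip3, the gene of the NF-kB inhibitor A20, had 6.94 and 6.39 CPM with nintedanib, 10.2 and 11.02 CPM in OHSS, and 7.81 and 5.67 CPM in COH. Both OHSS libraries were its 2 highest, and its differences were 0.65 for OHSS minus COH (SE 0.221, unadjusted p = 0.0289) and -0.67 for nintedanib minus OHSS (SE 0.221, unadjusted p = 0.0262), with edgeR's adjusted p at 0.542 and 0.653. Tnip1, which works with A20, had 116 and 133 CPM with nintedanib, 139 and 172 CPM in OHSS, and 107 and 108 CPM in COH.

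Among 17 other chemokines, 14 were tested. EdgeR called 0 in each comparison, with 4, 0 and 6 at an unadjusted p below 0.05 in OHSS against COH, nintedanib against OHSS and nintedanib against COH, where 8.82, 7.42 and 9.70% of all genes were. DESeq2 called 1, 0 and 2 of them, beside 1.89, 1.17 and 2.36% of all genes. Of the 14, 10 were higher in OHSS than in COH, 9 higher with nintedanib than in OHSS and 12 higher with nintedanib than in COH, beside 49.6, 51.5 and 49.9% of all genes. Cxcl10, which interferons induce, had 10.9 and 74.9 CPM with nintedanib, 19.0 and 13.1 CPM in OHSS, and 2.64 and 1.93 CPM in COH. Its DESeq2 adjusted p was 0.0217 for OHSS against COH and 1.47e-05 for nintedanib against COH, against 0.542 and 0.452 by edgeR. Ccl21a, a chemokine of lymphatic endothelium, was highest in both COH libraries, with 114 and 99.1 CPM with nintedanib, 105 and 129 CPM in OHSS, and 156 and 229 CPM in COH. Close copies of Ccl21a exist in the mouse genome, so its count is uncertain. Of 15 other cytokines 10 were tested, with 5 higher and 5 lower in each comparison, 0 called by edgeR or DESeq2, and 1 at an unadjusted p below 0.05, in nintedanib against COH, where 9.70% of all genes were.

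The other adhesion molecules of the vessel wall, 10 tested of 11, had a positive log2 fold change for 2 genes in OHSS against COH, for all 10 tested in nintedanib against OHSS, and for 6 in nintedanib against COH, beside 49.6, 51.5 and 49.9% of all genes. Again 0 were called by edgeR or DESeq2, and 1, 2 and 0 had an unadjusted p below 0.05, as 8.82, 7.42 and 9.70% of all genes had. Vwf, stored with P-selectin in endothelial granules, had 12.8 and 21.6 CPM with nintedanib, 7.62 and 6.70 CPM in OHSS, and 15.2 and 10.1 CPM in COH. Nintedanib minus OHSS was 1.26 (SE 0.333, unadjusted p = 0.0110) with an adjusted p of 0.653 by edgeR and 0.0646 by DESeq2. The endothelial marker sum given above, which shares Pecam1 with this list, was likewise lowest in OHSS. The part of endothelial content in these values was not tested.

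Cells that could bring these transcripts into the tissue were read from marker lists. The sum of 8 macrophage markers was 349 and 328 CPM with nintedanib, 577 and 394 CPM in OHSS, and 521 and 566 CPM in COH. Both nintedanib libraries were below all others in that sum, but without Lyz2, a choice made after seeing the data, the other 7 summed to 267 and 277 CPM with nintedanib, 410.2 and 257 CPM in OHSS, and 281 and 304 CPM in COH, and OHSS replicate 2 was then the lowest. Of the 8 macrophage genes, 7 were lower with nintedanib than in OHSS and 1 higher, where 51.5% of all genes were higher. EdgeR called 0 of the 8, 2 had an unadjusted p below 0.05 beside 7.42% of all genes, and DESeq2 called 1 beside 1.17%. Lyz2, lysozyme of macrophages and neutrophils, gave the smallest p, with 82.2 and 50.7 CPM with nintedanib, 167 and 137 CPM in OHSS, and 239.5 and 262 CPM in COH. Its nintedanib minus OHSS difference was -1.19 (SE 0.249), with an adjusted p of 0.625 by edgeR and 0.00421 by DESeq2. Neutrophil markers were near the limit of detection: the 8 summed to 3.75 and 2.52 CPM with nintedanib, 2.35 and 7.66 CPM in OHSS, and 3.26 and 3.47 CPM in COH, with Elane at 0 counts in all 6 libraries and Ly6g at 0 in all but nintedanib replicate 1. The highest neutrophil sum, in OHSS replicate 2, stood in the library with the most Sele, Cxcl1, Cxcl12, Il1b, Tnf and Cxcr2. That library also had the least Selp and Vcam1 of all 6, at 1.29 and 23.4 CPM. Icam1, Ccl2 and Il6 were highest in nintedanib replicate 2. Markers of platelets, which also hold P-selectin, summed to 7.84 and 10.2 CPM with nintedanib, 9.58 and 10.3 CPM in OHSS, and 11.1 and 14.1 CPM in COH, and 8 lymphocyte markers summed to between 6.40 and 11.1 CPM. The part of each cell type in the levels of the 10 genes was not tested.

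**Figure D4:**
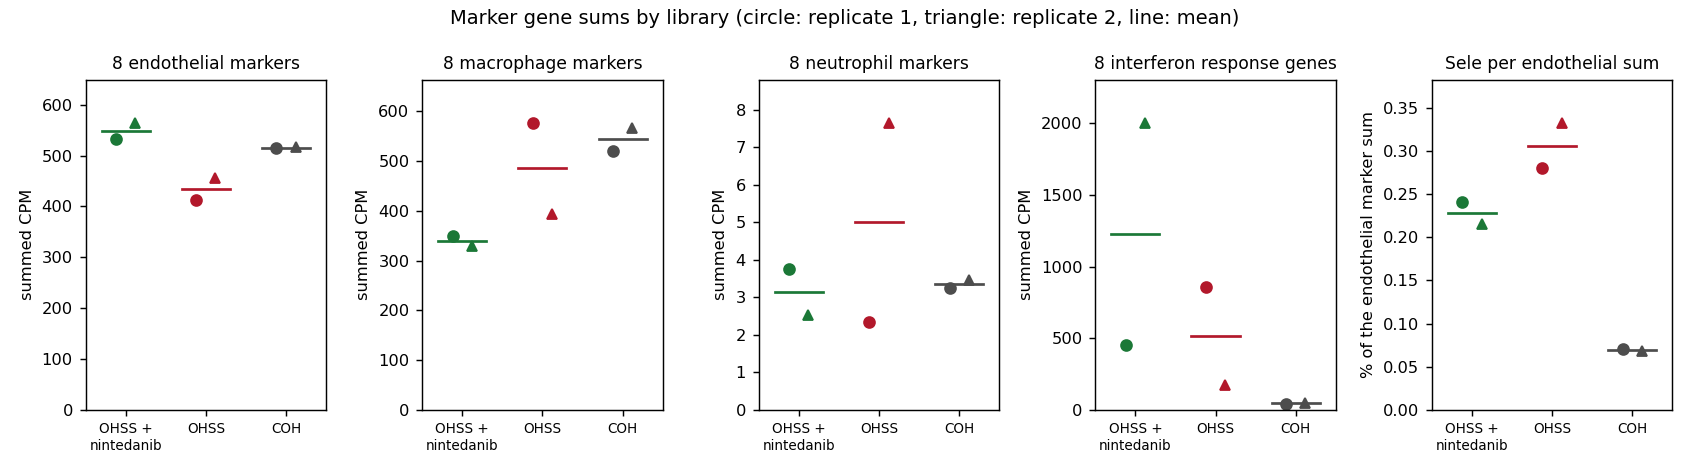
Summed CPM of 8 endothelial, 8 macrophage and 8 neutrophil markers and of 8 interferon response genes, and Sele as a percentage of the endothelial sum, in every library with the nintedanib, OHSS and COH ovaries from left to right; circles are replicate 1, triangles replicate 2 and lines the means of 2 libraries. As a share of the endothelial sum, Sele is higher in the 4 OHSS libraries, at 0.215 to 0.333% against 0.0678 and 0.0710% in COH.

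Beyond these lists the libraries differed in other ways. The interferon response sum was 453 and 2004 CPM with nintedanib, 854 and 171 CPM in OHSS, and 42.5 and 44.9 CPM in COH. It was higher in the 4 OHSS libraries than in both COH libraries, as Sele and Tnf were. Genes higher without overlap made up 21.2% of all genes in OHSS against COH and 22.3% in nintedanib against COH. Among the 4 OHSS libraries, OHSS replicate 2 had the lowest interferon sum and the most Sele and Tnf. Nintedanib replicate 2 had the highest sum and the least Tnf. Tnf had 14 to 33 counts in these libraries, so its order is uncertain, and a link with the interferon sum was not tested. Immediate early genes summed to 560.1 and 1310 CPM with nintedanib, 476 and 607 CPM in OHSS, and 840.3 and 1175 CPM in COH. Granulosa markers summed to 4507 and 4197 CPM with nintedanib, 2897 and 2830 CPM in OHSS, and 2621 and 2677 CPM in COH. Inha was most of this sum, with 3218 ± 480, 2190 ± 145 and 2058 ± 137 CPM in nintedanib, OHSS and COH ovaries. Foxl2 had 280 ± 26.9, 238 ± 2.97 and 264 ± 24.2 CPM, and Amh 102 ± 11.6, 88.7 ± 13.1 and 149 ± 40.5 CPM. Of the 5 markers, 5 were higher with nintedanib than in OHSS, where 51.5% of all genes were. Against COH, 4 were higher and 1 lower with nintedanib, beside 49.9% of all genes higher. Oocyte markers summed to between 83.0 and 159 CPM in all libraries. Luteal markers summed to 14165 and 13404 CPM with nintedanib, 18044 and 20416 CPM in OHSS, and 13933 and 15946 CPM in COH. This sum was highest in both OHSS libraries. Of the 5 luteal markers, 4 were higher and 1 lower in OHSS than in COH, where 49.6% of all genes were higher. Erythroid markers summed to 156 and 84.0 CPM with nintedanib, 60.4 and 173 CPM in OHSS, and 219 and 218 CPM in COH. The part of these differences in the levels of the 10 genes was not tested.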

How the data were processed

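RNA of 6 ovary libraries, made with an mRNA kit per the labels, was sequenced. The authors deposited 1 table of raw counts per gene, per the file headers, and read summaries per library, which here served to compare counts with reads. Tools named in the submitters' processing notes, without roles, are StringTie 1.3.3b, HISAT2 2.1.0 and Trimmomatic 0.36, with build mm8. The sources used here name no counting program and no use of strand. Counts came to 72.1 to 74.0% of reads and 144 to 148% of read pairs, so a pair may count as 2.

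CPM were computed here on TMM-scaled library sizes (0.961 to 1.03). Genes kept by filterByExpr, 19027 of 51826, entered 1 fit of 3 groups with edgeR 4.0.16's quasi-likelihood test (R 4.3.3; 3 residual and 2.41 prior degrees of freedom), with Benjamini-Hochberg adjustment over all genes and calls below 0.05. DESeq2 1.42.0, limma 3.58.1 (voom), other scalings and filters, halved counts and libraries left out were alternatives. An exact permutation test of 2 against 2 cannot go below 0.333, so none is given. Positions and exon lengths came from GENCODE M21 (GRCm38), in which 51633 IDs matched. The members and the 23 lists were chosen with earlier results of these data known. Text names the 10 members, 17 partners and up to 3 genes with the smallest p in each other list, and any other gene as chosen later.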

Additional observations from a re-analysis of the deposited data

How the results depend on the processing

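Sele in OHSS against COH was the member whose call changed: DESeq2 called 1 of the 10, edgeR 0. Over all genes, edgeR called 2, 1 and 5 in OHSS against COH, nintedanib against OHSS and nintedanib against COH. DESeq2 called 360, 223 and 449, and no filter gave 4 and 2 in the first 2 comparisons. Fits of only the 2 groups compared gave 0, 0 and 2, and limma voom gave 0 in the first and 2 in the third. No pairing was found: same-numbered libraries had correlated deviations of -0.000723, 0.0484 and -0.00226, and a replicate block gave 1, 0 and 2 calls. Leaving out 1 library gave 0 to 2, 0 to 27 and 0 to 45 calls, the highest of the last 2 without nintedanib replicate 1. The direction of Sele, Tnf, Cxcl1 and Ccl2 in OHSS against COH, and of Cxcl1, Il1b and Cxcl12 in nintedanib against OHSS, held in every alternative run for them (endothelial scaling was run for the 4 adhesion genes only). Directions that turned belonged to uncalled differences, and the cause was not tested. In OHSS against COH, Il6 was 0.000922 with RLE scaling, 0.0013 with DESeq2 and 0.061 with halved counts, Cxcl12 was -0.0199 with library size only, -0.062 with voom and -0.0426 with the block, and Icam1 was 0.040 with endothelial scaling, which moves the median of all genes by 0.25. In nintedanib against OHSS, endothelial scaling, which moves that median by -0.33, gave Selp -0.080, Vcam1 -0.14 and Icam1 -0.039, voom gave Ccl2 -0.042 and Il6 -0.00592, the block gave Ccl2 -0.18, and halving gave Il6 -0.17. In nintedanib against COH, Selp was 0.000224 with RLE scaling and 0.00052 with library size only, and Il6 was -0.044 with voom, -0.041 with the block and -0.11 with halved counts. Leaving out 1 library gave, in OHSS against COH, -0.60 to 0.0036 for Selp, -0.32 to 0.57 for Vcam1, -0.32 to 0.25 for Il6, -0.31 to 0.49 for Il1b and -0.70 to 0.53 for Cxcl12. It gave, in nintedanib against OHSS, -0.30 to 0.11 for Sele, -0.046 to 0.60 for Selp, -0.16 to 0.74 for Vcam1, -0.80 to 0.60 for Ccl2, -0.66 to 0.54 for Il6 and -1.03 to 0.21 for Tnf. In nintedanib against COH the ranges were -0.32 to 0.26 for Selp, -0.041 to 0.24 for Icam1, -0.68 to 0.52 for Il6 and -2.18 to 0.18 for Cxcl1. A filter of at least 1 CPM in 2 libraries removed Il6. Il6, Tnf and Sele rest on few counts, 4 to 46 a library.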
